A study of Mus musculus with 15 samples.

Results

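TMEM45A, a gene for a membrane protein, was followed by its symbol through 15 RNA sequencing libraries. It is 1 of the 19051 genes with enough counts to be tested, out of 56967 names in the count tables. Its change in each hairpin set was placed among the 1647 genes (8.65% of those tested) whose mean level in the control libraries lay within 20 percent of its own. Those genes are called like-level genes below, and the closest relative, TMEM45B, is given beside TMEM45A.

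The libraries fall into 5 groups of 3, and every group carries a short hairpin RNA, so that no group is free of one. The groups are cells with a control hairpin (NC), with either of 2 hairpins against SHCBP1 (shSHCBP1_1 and shSHCBP1_2), and with either of 2 hairpins against TMEM45A. The last pair is called set 4 and set 2 after the numbers in the count columns, and which of the designed sequences each set carries is not known. NC and the shSHCBP1 libraries stand in one table and the shTMEM45A libraries in another, so in any comparison with NC the target and the table cannot be told apart. All groups come from 1 cell line, and the labels name neither clones nor separate cultures. The p-values therefore rest on the spread among the libraries deposited, which may be no more than technical.

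TMEM45A spans the membrane several times and has been placed at the trans-Golgi network, the compartment from which proteins leave the Golgi for the cell surface and endosomes. It is best known from the epidermis, where it is abundant in keratinocytes late in differentiation, and from tumour cells, where low oxygen raises it. TMEM45B is its paralogue. A short hairpin RNA is trimmed to a short duplex, and its guide strand, read mainly through the seed at its 5′ end, leads the silencing complex to matching transcripts and lowers them.

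The designed oligos against TMEM45A are shown because both shTMEM45A sets rest on them. Each has 97 bases, with a sense arm and a guide arm of 22 bases that pair at 21 positions; the base left unpaired is the first of the sense arm. The arms are written 5′ to 3′ in DNA letters, and the capitals in the guide arms mark the seed, bases 2 to 8.
sh-TMEM45A-1 sense arm: cggttaaagtatttgaatttaa
sh-TMEM45A-1 guide arm: tTAAATTCaaatactttaacca
sh-TMEM45A-2 sense arm: cggtgtacaaagagtattctga
sh-TMEM45A-2 guide arm: tCAGAATActctttgtacacca
The seeds, TAAATTC and CAGAATA, differ. The guide arm of sh-TMEM45A-1 holds 4 bases that are G or C and that of sh-TMEM45A-2 holds 8.

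The libraries were of like depth, with 13780294 to 16484000 counts each, and 3 counts correspond to at most 0.229 CPM (counts set to a fixed, TMM-scaled library total). The labels name MDA-MB-468, an established basal-like breast carcinoma line, but the data mostly go against that name. KRT5, KRT6A and KRT16, keratins of basal and squamous cells, had 0 counts in every library, KRT14 reached at most 0.21 CPM and KRT19 at most 0.129 CPM. EGFR, which that line is known for carrying in many copies, stood at 6.96 to 17.5 CPM. Other epithelial markers were present, with the keratins KRT8 at 78 to 176 CPM and KRT18 at 43.8 to 163 CPM and the adhesion genes CDH1 at 5.63 to 12.9 CPM and EPCAM at 3.71 to 8.8 CPM. Genes of neurofilaments, which neurons use, were abundant, with NEFM at 69 to 260 CPM and NEFL at 53.3 to 181 CPM. Of 16 markers of the labelled line 9 could be tested, and their summed level ran from 168 to 172 CPM in NC, 181 to 196 in shSHCBP1_1, 181 to 186 in shSHCBP1_2, 325 to 373 in set 4 and 339 to 374 in set 2. KRT8 (mean 79.3 CPM in NC) and KRT18 (44.6 CPM in NC) make up most of that sum, whereas EGFR (16.3 CPM in NC) and CDH1 (12 CPM in NC) had no library far above NC. Of 10 neural or embryonic kidney markers 9 could be tested, and their sum ran the opposite way, from 730 to 743 CPM in NC, 685 to 724 and 636 to 663 in the libraries labelled shSHCBP1_1 and shSHCBP1_2, to 423 to 451 in set 4 and 383 to 400 in set 2. NEFM (mean 255 CPM in NC) and NEFL (176 CPM in NC) make up most of that sum. INA (42.7 CPM in NC) reached 60.9 CPM, and ENO2 (153 CPM in NC) stayed within 129 to 163 CPM. CDH2 (29.4 CPM in NC) had libraries as low as 12.8 CPM. The sum thus follows the 2 neurofilament genes more than the list as a whole. Summed markers of fibroblasts (30.4 to 54.9 CPM), endothelial cells (0.659 to 2.26 CPM) and leukocytes (0.486 to 7.39 CPM) were lower, and PTPRC, MS4A1 and FAP had 0 counts. The part that these marker shifts have in any result below was not tested, and in bulk RNA fewer cells of a type and less RNA per cell cannot be told apart.

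TMEM45A itself was lower in both shTMEM45A sets than in every other library. In NC its levels were 27.55, 24.22 and 28.06 CPM, from 397, 346 and 406 counts. These and all CPM values are scaled by TMM, a method that sets library totals on a common footing. In set 4 they were 18.25, 15.75 and 19.39 CPM, and in set 2 they were 19.91, 18.52 and 19.76 CPM. The highest of these 6 libraries lies below the lowest NC library, so the groups did not overlap. Among all genes tested, groups that do not overlap, with the hairpin set lower, were found for 40.0% in set 4 and 39.4% in set 2.

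The mean was 26.6 ± 2.09 CPM in NC (SD, n = 3), 17.8 ± 1.86 CPM in set 4 and 19.4 ± 0.761 CPM in set 2. In set 4 the log2 change was -0.58 (SE 0.103, 95% interval -0.79 to -0.37, edgeR adjusted p = 5.6e-06), which leaves 66.9% of the NC level (57.9 to 77.3%). In set 2 it was -0.46 (SE 0.102, interval -0.66 to -0.25, edgeR adjusted p = 0.000144), which leaves 72.9% (63.2 to 84.1%). Both intervals lie above a level of 50%, so a fall to less than that share of the transcript is outside them. With the library totals as they stand instead of TMM scaling, the log2 changes were -0.77 and -0.65, while the median of all genes moved to -0.23 in both sets.

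The libraries labelled shSHCBP1 sit in the same table as NC and did not show a detectable change of TMEM45A. In shSHCBP1_1 it stood at 27.84, 25.72 and 31.38 CPM, and in shSHCBP1_2 at 24.45, 25.71 and 23 CPM, so both groups overlap NC. Their means were 28.3 ± 2.86 and 24.4 ± 1.35 CPM. The log2 changes against NC were 0.09 (interval -0.11 to 0.29, edgeR adjusted p = 0.581) and -0.13 (interval -0.33 to 0.07, edgeR adjusted p = 0.358). SHCBP1, an adaptor-binding protein of dividing cells and the target of those hairpins, stood at 44.1 CPM in NC, 47.1 and 44.3 CPM in those libraries, and 52.4 and 59.9 CPM in sets 4 and 2.

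**Figure D1:**
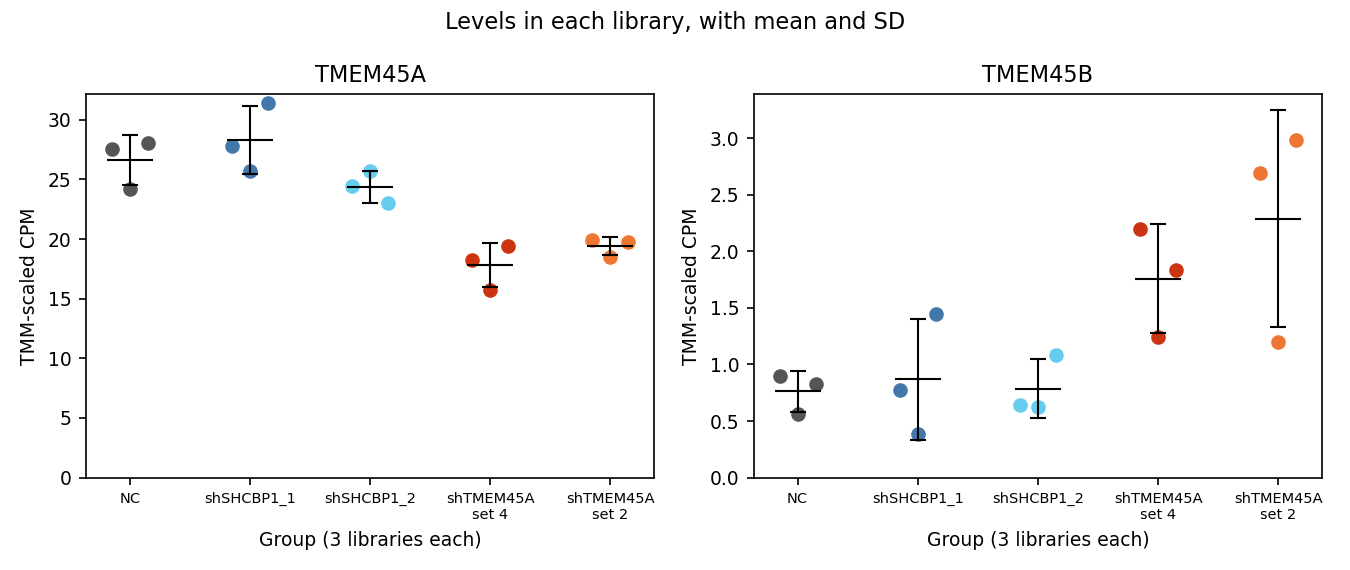
Level of TMEM45A (left) and TMEM45B (right) in TMM-scaled CPM on axes from 0, by group, with 1 point for each of 3 libraries, a long line for the mean and error bars for the SD. The 6 shTMEM45A libraries sit between 15.75 and 19.91 CPM for TMEM45A, below all others, and between 1.197 and 2.979 CPM for TMEM45B.

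Ordered by mean level, TMEM45A was highest in shSHCBP1_1, followed by NC, shSHCBP1_2, set 2 and set 4. Neighbours in that order mostly did not differ beyond their spread: the first 2 steps are the comparisons with NC above, and set 2 exceeded set 4 by 0.12 (SE 0.106, interval -0.09 to 0.34, edgeR adjusted p = 0.558). The step from shSHCBP1_2 down to set 2, which crosses the tables, passed the test, with a log2 difference of -0.33 (SE 0.102, edgeR adjusted p = 0.0043), as 40.3% of all genes tested did in that direction. Without NC in the comparison, the mean of both shTMEM45A sets lay below the mean of both shSHCBP1 sets (log2 difference -0.50, SE 0.0718, edgeR adjusted p = 1.05e-07), at 70.7% of their level. Between shSHCBP1_2 and shSHCBP1_1 the log2 difference was -0.22 (SE 0.0969, edgeR adjusted p = 0.396), in a comparison where 0.357% of all genes tested passed as lower. The lowest shSHCBP1_1 library, at 25.72 CPM, and the highest shSHCBP1_2 library, at 25.71 CPM, all but touch, and 11.7% of all genes tested had groups that did not overlap in that direction. In a fit of those 2 groups alone that difference passed (-0.22, edgeR adjusted p = 0.0399). In all, 11 comparisons of TMEM45A were made, each with p-values adjusted over the 19051 genes.

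The like-level genes show how common a fall of that size was. They ran from 21.3 to 31.9 CPM in NC, with 894 of them below TMEM45A and 753 above. At the edges of the band, KIF21B (21.29 CPM) and PARG (31.93 CPM) lie just inside it, and ETFDH (21.29 CPM) and PPM1M (31.94 CPM) just outside. The band matches genes by counts and hence by counting precision, not by transcripts per length. TMEM45A is a gene of middle level, with 63.8% of the genes tested below it in NC.

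In set 4, 742 of the 1647 like-level genes were called lower (45.1%) and 592 higher (35.9%), against 38.9% lower and 35.5% higher over all genes tested. Called means an edgeR adjusted p under 0.05. TMEM45A was therefore 1 of many: 496 like-level genes had a lower log2 change than it and 1151 a higher one, which places it above 30.1% of them. The like-level genes had a median log2 change of -0.12, and their central 50% ran from -0.69 to 0.486. TMEM45A, at -0.58, lay inside that central range, and its difference from the median was -0.461. Groups that did not overlap with set 4 lower were found for 756 like-level genes (45.9%). For 52.3% of the like-level genes the adjusted p was smaller than that of TMEM45A, against 41.5% of all other genes tested.

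Set 2 gave a like picture. Here 752 like-level genes were called lower (45.7%) and 588 higher (35.7%), against 39.8% and 36.1% of all genes tested. TMEM45A lay above 585 of them and below 1062, a place of 35.5%. Their median was -0.137 and their central 50% ran from -0.734 to 0.504. TMEM45A, at -0.46, again lay inside, with a difference of -0.319 from the median. Groups that did not overlap with set 2 lower were found for 746 (45.3%). An adjusted p smaller than that of TMEM45A was found for 62.5%, against 52.8% of all other genes tested. Called changes of more than 2-fold, which TMEM45A did not reach, were downward in 257 of the 1647 like-level genes in set 4 and 295 in set 2. They were upward in 199 and 215. Of all 19050 other genes tested, 3805 and 4093 had such a change downward, and 3559 and 3827 upward. Sets 4 and 2 share the NC libraries, so these places are not independent of each other.

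**Figure D2:**
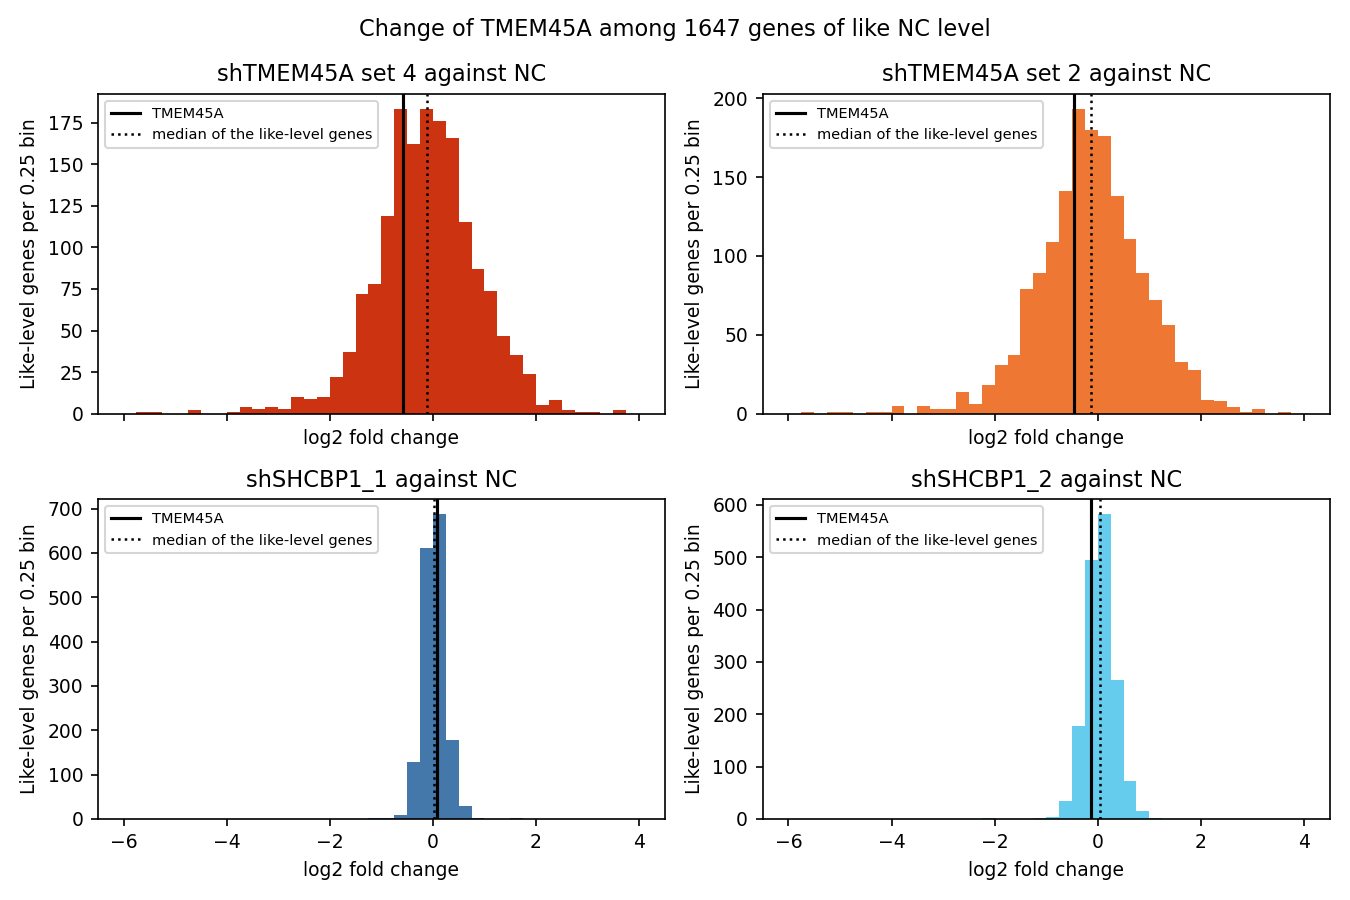
Number of like-level genes (vertical axis) by log2 fold change against NC in bins of 0.25 (horizontal axis), 1 panel per hairpin set, with a solid line at TMEM45A and a dotted line at the median. The distributions of the shTMEM45A sets are wide, with TMEM45A above 30.1% and 35.5% of the genes, and those of the shSHCBP1 sets are narrow around 0.

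The libraries labelled shSHCBP1 spread far less. In shSHCBP1_1, 90 like-level genes were lower (5.46%) and 207 higher (12.6%), against 10.6% and 9.42% of all genes tested. A called change of more than 2-fold was found for 0 of them, against 42 downward and 277 upward among all 19050 other genes tested. Leaving out single libraries gave 2.55% to 3.28% lower. TMEM45A lay above 64.4% of them. In shSHCBP1_2, 193 were lower (11.7%) and 384 higher (23.3%), against 15.5% and 15.7%, and TMEM45A lay above 26.2%. That place is lower than those in sets 4 and 2, although the change behind it did not pass the test. The direction of these small calls depended on scaling. In shSHCBP1_1 69.7% of like-level calls were higher with TMM, 42.5% with RLE (the scaling of DESeq2) and 96% with total counts, and in shSHCBP1_2 these shares were 66.6%, 45.5% and 92.4%.

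Each library gave its own place when its level was set against the NC mean, as log2 of CPM + 0.5. In set 4 TMEM45A lay above 32.1%, 23.4% and 35.2% of the like-level genes, with log2 ratios of -0.53, -0.74 and -0.44. In set 2 it lay above 37.2%, 31.8% and 37.7%, with log2 ratios of -0.41, -0.51 and -0.42. All 6 shTMEM45A libraries thus lay between 23.4% and 37.7%. The shSHCBP1_1 libraries ranged from 37.8% to 83.7% and the shSHCBP1_2 libraries from 18.5% to 36.7%, so by place alone the latter overlap both shTMEM45A sets. Set against each other within their own table, set 2 and set 4 left TMEM45A above 78.6% of the like-level genes, where 47 were lower (2.85%) and 44 higher (2.67%) in set 2. Of all genes tested 3.43% were lower there, and 5.43% passed in either direction. Against the shSHCBP1 sets, 852 like-level genes were lower in the shTMEM45A sets (51.7%) and 584 higher (35.5%), against 44.1% and 35.1% of all genes tested, and TMEM45A lay above 34.3%.

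The 10 genes nearest to TMEM45A in NC, all at 26.6 CPM, show this spread gene by gene. PRKCE, the kinase protein kinase C epsilon, stood at 24.36, 25.76 and 29.72 CPM in NC, at 7.615, 7.767 and 6.565 CPM in set 4 and at 6.902, 4.578 and 6.684 CPM in set 2. Its log2 changes of -1.86 (SE 0.133, edgeR adjusted p = 7.74e-15) and -2.14 (SE 0.137, edgeR adjusted p = 3.03e-16) were larger than those of TMEM45A. It was also lower in shSHCBP1_1 (-0.46) and shSHCBP1_2 (-0.53), with edgeR adjusted p = 0.00451 and 0.000646. B3GAT1, a glucuronyltransferase of the Golgi, stood at 28.45, 26.25 and 25.09 CPM in NC, 11.8, 16.56 and 12.75 CPM in set 4 and 14.02, 12.39 and 14.75 CPM in set 2. Its log2 change was -0.96 in each set (edgeR adjusted p = 1.34e-09 and 1.28e-09). The groups did not overlap, as for 40.0% of all genes tested in set 4 and 39.4% in set 2 in that direction.

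Falls close to that of TMEM45A were found in CHD9, a chromatin remodeller (-0.47 in set 4 and -0.69 in set 2), WIPF2, a partner of WASP in actin assembly (-0.40 and -0.30), and GDPD5, a glycerophosphodiesterase (-0.40 and -0.31). The call of WIPF2 in set 2 was lost without NC replicate 1 (-0.23, edgeR adjusted p = 0.0655). ZNF517, a zinc finger gene, rose by 0.59 and 0.58. FADS3, of the fatty acid desaturase family, passed in set 2 (0.27, edgeR adjusted p = 0.00466) and not in set 4 (0.06, edgeR adjusted p = 0.54), and the sets themselves differed by 0.21 (edgeR adjusted p = 0.147). The autophagy gene ATG14 (0.03 and -0.02), the calcium channel subunit CACNB3 (0.00 and 0.12) and the phosphatase inhibitor PPP1R14C (0.06 and -0.03) did not pass. Of these 10 neighbours, 5 were thus lower in both sets, 1 was higher in both and 3 passed in neither. Taken set by set, 38.9% of all genes tested were lower in set 4 and 39.8% in set 2, and 35.5% and 36.1% higher.

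**Figure D3:**
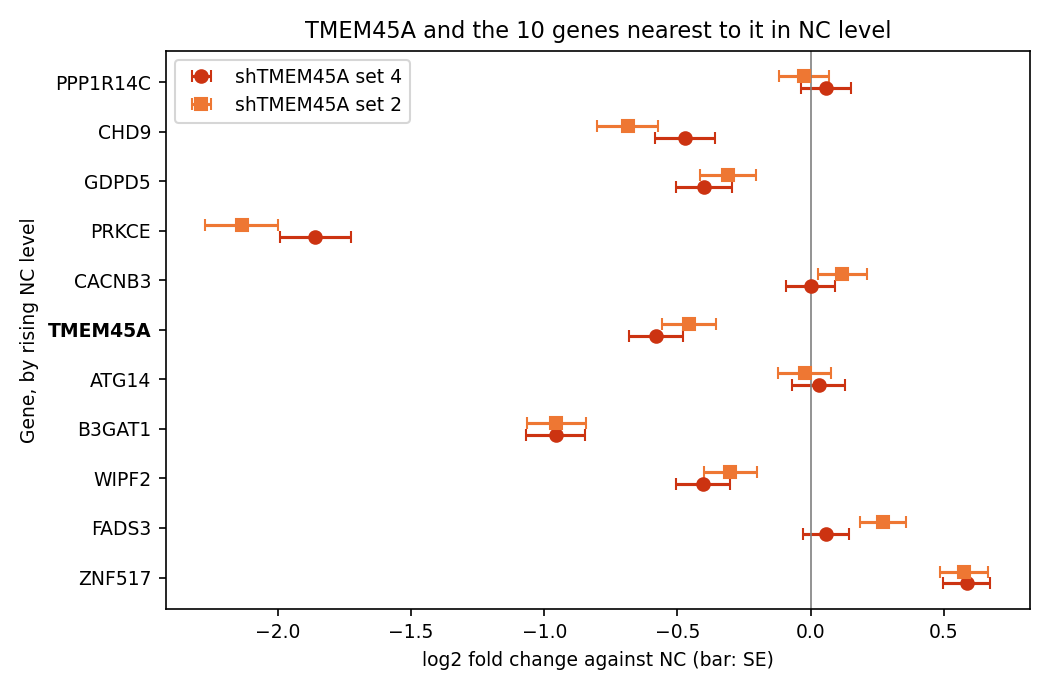
Log2 fold change against NC (horizontal axis, with bars for the SE) of TMEM45A and the 10 genes nearest to it in NC, from the lowest NC level at the bottom to the highest at the top, for set 4 (circles) and set 2 (squares). PRKCE lies farthest to the left at -1.86 and -2.14, and TMEM45A lies between B3GAT1 and the genes near 0.

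The ends of the like-level range lay far from TMEM45A. KLHL11, of the kelch-like family, stood at 27.3 CPM in NC, 0.533 CPM in set 4 and 0.952 CPM in set 2 (log2 changes -5.66 and -4.82). The transcripts AC138932.1 (-5.34 and -5.13) and AC018638.4 (-4.64 and -5.51), which carry only clone names, lay next to it in set 4 and below it in set 2. At the upper end, FOSB, a subunit of the transcription factor AP-1, went from 29.2 CPM to 362.5 and 259.2 (3.63 and 3.15), and COPS9, a small subunit of the COP9 signalosome, from 29.7 CPM to 241 and 249.5 (3.02 and 3.07). RN7SL2, an RNA of the signal recognition particle (3.68 and 3.5), shares sequence with near-identical copies, and its value is uncertain. The changes of these genes span -5.66 to 3.68 in set 4, against -0.58 for TMEM45A.

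Transcript length moved with the changes, and its part in them was not tested. Lengths came from the mouse annotation by the same symbol, the only one at hand, for 1463 of the 1647 like-level genes (88.8%). Mouse Tmem45a has 2701 nt. Among the 488 shortest genes (median 1592 nt) the median log2 change was 0.465 in set 4 and 0.453 in set 2. Among the 487 of middle length (median 2997 nt) it was -0.149 and -0.151, and among the 488 longest (median 5151 nt) it was -0.59 and -0.602. TMEM45A accordingly lay above 13.5% of the shortest genes in set 4, 26.7% of the middle ones and 50.6% of the longest, and in set 2 above 15.4%, 33.1% and 59.2%.

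Length matched as well as level gave 561 genes of 1891 to 3511 nt. Their median log2 changes were -0.0256 in set 4 and -0.0393 in set 2, with 38.7% and 39.6% lower and 37.6% and 36.9% higher. TMEM45A lay above 22.3% of them in set 4 and 28% in set 2, lower places than among all like-level genes. In the libraries labelled shSHCBP1 the medians of the same length classes ran only from -0.0138 to 0.0914.

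**Figure D4:**
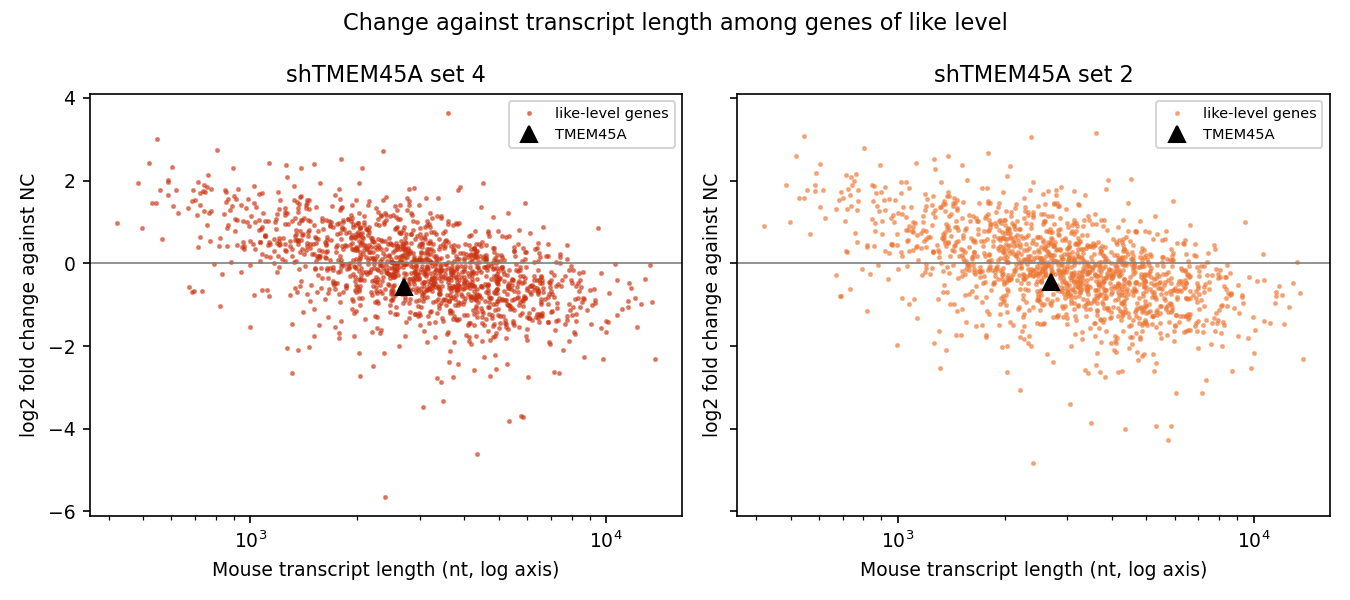
Log2 fold change against NC (vertical axis) by mouse transcript length in nt (log axis) of the 1463 like-level genes with a length, in set 4 (left) and set 2 (right), 1 point per gene and a triangle for TMEM45A. Points drift downward with length, from medians of 0.465 and 0.453 in the shortest genes to -0.59 and -0.602 in the longest, and TMEM45A lies near the middle of the lengths.

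TMEM45B, the paralogue, was higher in the shTMEM45A sets. It was scarce, with 13, 8 and 12 counts in NC, 32, 17 and 24 in set 4, and 37, 17 and 41 in set 2. On the CPM scale the NC libraries held 0.902, 0.56 and 0.829, the set 4 libraries 2.195, 1.246 and 1.832, and the set 2 libraries 2.688, 1.197 and 2.979. Every shTMEM45A library exceeded every NC library, as it did for 36.2% of all genes tested in set 4 and 35.5% in set 2. The means were 0.764 ± 0.18, 1.76 ± 0.479 and 2.29 ± 0.956 CPM.

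The log2 changes of TMEM45B were 1.2 in set 4 (SE 0.459, interval 0.26 to 2.13, edgeR adjusted p = 0.0196) and 1.57 in set 2 (SE 0.449, interval 0.66 to 2.48, edgeR adjusted p = 0.00215). The call in set 4 was lost without NC replicate 2 (1.01, edgeR adjusted p = 0.0805) and without set 4 replicate 1 (0.996, edgeR adjusted p = 0.0813). In the libraries labelled shSHCBP1_1 the counts were 14, 6 and 23, and in shSHCBP1_2 they were 10, 10 and 17, both overlapping NC. Their log2 changes were 0.18 (interval -0.81 to 1.17, edgeR adjusted p = 0.848) and 0.04 (interval -0.97 to 1.05, edgeR adjusted p = 0.965), intervals whose upper ends lie just below the change in set 4. Among 1145 genes within 20 percent of the NC level of TMEM45B, 23.8% were called higher in set 4 and 25.3% in set 2, and TMEM45B lay above 80.8% and 85% of them. Mouse Tmem45b has 1291 nt, which is below the median of the shortest class of like-level genes above, 1592 nt.

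Some genes followed TMEM45A closely over the 15 libraries. Over 10872 genes of at least 2 in mean log2 CPM, the median Pearson r with TMEM45A was 0.224, 195 genes had r over 0.9 and 191 had r under -0.9. These libraries are 5 groups from 2 tables, so r mostly follows the step between the tables and is given with no p. The highest values were those of GOLGA8A, a golgin (0.953), MFSD13A, of a transporter family (0.939), PLCG2, a phospholipase C (0.936), BOC, a hedgehog co-receptor (0.935), and ZNRD1ASP (0.933). GOLGA8A has near-identical copies and ZNRD1ASP is antisense to another gene, so both values are uncertain. PLCG2 stood at 21.6, 20.9, 18.4, 10.5 and 11.4 CPM in NC, shSHCBP1_1, shSHCBP1_2, set 4 and set 2, and BOC at 28.5, 29.0, 25.1, 13.6 and 12.4 CPM. FER1L4 (-0.952), NKRF, a repressor of NF-kB targets (-0.952), and RING1, a polycomb subunit (-0.938), ran opposite.

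Genes of the settings in which TMEM45A is known were described from fixed lists. Hypoxia response genes had 19 of 26 lower and 4 higher in set 4 and 21 lower and 3 higher in set 2, with medians of -0.60 and -0.67 against -0.035 and -0.044 over all genes. The lower shares, 73.1% and 80.8%, stand against 38.9% and 39.8% of all genes tested, and the higher shares, 15.4% and 11.5%, against 35.5% and 36.1%. A log2 change lower than that of TMEM45A was found for 14 of them in set 4 and 17 in set 2. LOX, a collagen cross-linking enzyme, had log2 changes of -1.46 and -1.57, and PFKFB3, a regulator of glycolysis, of -1.45 and -1.70. ANGPTL4, a secreted lipase inhibitor, rose by 1.78 and 2.39, and CA9, a carbonic anhydrase, by 1.41 and 1.96. Both were scarce, at means of 0.44 and 0.487 CPM in NC. Both may have passed the count filter only through groups where they were higher than in NC, which would favour a rise. The call of CA9 in set 4 was lost without set 4 replicate 2 (0.82, edgeR adjusted p = 0.172). Within the table of NC, 12 of the 26 were lower and 1 higher in shSHCBP1_1 (46.2% lower, against 10.6% of all genes tested), and 16 were lower and 0 higher in shSHCBP1_2 (61.5% lower, against 15.5%). With total counts these became 7 and 4, and 10 and 4.

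Trans-Golgi network genes had 17 of 25 lower in each set, with 2 higher in set 4 and 3 in set 2, and medians of -0.387 and -0.477. That is 68% lower, against 38.9% and 39.8% of all genes tested, and 8% and 12% higher, against 35.5% and 36.1%. M6PR, a mannose-6-phosphate receptor, fell from 53.4 CPM in NC to 14.5 and 12.8 (log2 changes -1.88 and -2.06), and the golgin GOLGA4 from 72.8 CPM to 25.9 and 26.7 (-1.49 and -1.45). GCC1, another golgin, rose by 1.0 and 1.14, and the SNARE gene STX10 by 0.77 and 0.76. GCC1 was higher in the libraries labelled shSHCBP1 too, by 0.69 and 0.82. Of the same list 2 were lower (8%, against 10.6% of all genes tested) and 3 higher (12%, against 9.42%) in shSHCBP1_1, and 3 lower (12%, against 15.5%) and 4 higher (16%, against 15.7%) in shSHCBP1_2, shares near those of all genes. The counts moved to 6 and 3 and to 8 and 3 with RLE and to 1 and 4 and to 1 and 8 with total counts.

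Late keratinocyte genes were mostly missing: 6 of 24 could be tested, and 4 of those 6 were higher and 0 lower in each set, against 35.5% and 36.1% of all genes tested that were higher. CNFN, of the cornified envelope, went from 4.68 CPM in NC to 27.0 and 26.6 (2.52 and 2.50), and KRT10, a keratin of the upper epidermis that also appears in other cells, from 24.7 to 90.8 and 96.2. SBSN, the gene of suprabasin, had 1 count in NC against 68 in each set, ratios of 71.0 (exact 95% interval 12.3 to 2846) and 70.3 (12.2 to 2819). It was also higher in the libraries labelled shSHCBP1, with 13 counts in shSHCBP1_1 (ratio 11.3, interval 1.7 to 480.9) and 12 in shSHCBP1_2 (ratio 11, interval 1.63 to 470.1). There 1 and 2 of the 6 genes were higher and 0 lower, against 9.42% and 15.7% of all genes tested that were higher. KLK7, an epidermal protease, rose by 1.23 in sets 4 and 2. It did not pass in the libraries labelled shSHCBP1 (0.085 and 0.24, edgeR adjusted p = 0.941 and 0.774). SBSN had means of 0.0233 CPM in NC and 0.258 and 0.255 CPM in the libraries labelled shSHCBP1. It thus passed the count filter only through the sets where it was high, which nearly fixed its direction. KLK7, at 0.557 CPM in NC, may have done so too. With total counts 3 of the 6 were higher in each shTMEM45A set. TGM1 and ALOX12B did not pass in either set, and loricrin, filaggrin and involucrin had too few counts to be tested.

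Genes known to lie near TMEM45A on the long arm of human chromosome 3 were found in both directions. Of 14 tested, 7 were lower (50%), 4 higher (28.6%) and 3 not called in each set, shares near the 38.9% and 39.8% lower and 35.5% and 36.1% higher of all genes tested. ZBTB11, a zinc finger gene (-1.11 and -1.14), and TBC1D23, a trans-Golgi tether (-0.91 and -0.98), fell, while TRMT10C, of the mitochondrial RNase P (2.30 and 2.20), and the ribosomal protein gene RPL24 (1.56 and 1.53), which has processed copies and is uncertain, rose. LNP1 rose by 1.12 and 1.33, and TFG, of the early secretory pathway, did not pass (-0.05 and 0.04). TRMT10C rose in shSHCBP1_1 and shSHCBP1_2 too (0.92 and 1.01), whereas RPL24 fell there (-0.21 and -0.28). Of the 14, 21.4% were lower and 7.14% higher in shSHCBP1_1, against 10.6% and 9.42% of all genes tested. The shares in shSHCBP1_2 were 21.4% and 14.3%, against 15.5% and 15.7%. Of 11 tested genes near TMEM45B on chromosome 11, 5 were lower (45.5%), 3 higher (27.3%) and 3 not called in each set, again near those shares, with PRDM10 at -1.11 and -1.69, and ADAMTS8 at 0.99 and 0.89. ADAMTS8 rose by like amounts in shSHCBP1_1 and shSHCBP1_2 (0.85 and 1.14), and PRDM10 did not pass there. Of the 11, 27.3% were lower and 9.09% higher in shSHCBP1_1, against 10.6% and 9.42% of all genes tested. In shSHCBP1_2, 27.3% were lower and 27.3% higher, against 15.5% and 15.7%. The potassium channel gene KCNJ1 rose by 3.00 and 1.94, and its call in set 2 was lost without set 2 replicate 3 (1.67, edgeR adjusted p = 0.058). It was close to the floor, at means of 0.162 CPM in NC, 1.36 CPM in set 4 and 0.649 CPM in set 2. KCNJ1 may thus have passed the count filter only through the sets where it was high, which would favour a rise.

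**Figure D5:**
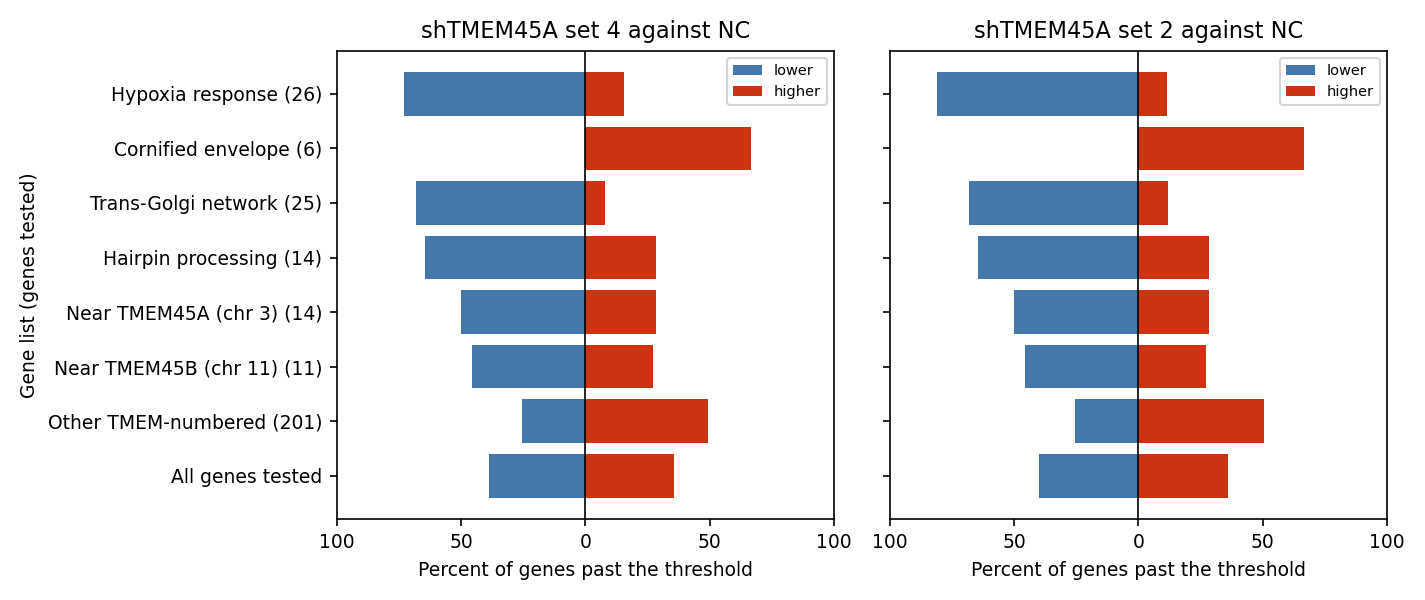
Percent of the tested genes of each list called lower (bars to the left of 0) or higher (bars to the right), in set 4 (left) and set 2 (right), with the number tested in parentheses and all genes tested at the bottom. Hypoxia genes reach 73.1% and 80.8% lower, against 38.9% and 39.8% of all genes tested.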

How the data were processed

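The values are unnormalized counts of reads by gene symbol, in 2 tables of 58735 rows that the authors deposited, from oligo-dT selected RNA with a kit that does not mark strand, per the labels' protocols. Aligner and counter: not given in the sources used here. By the submitters' processing notes the build is mm10, and the labels name the mouse, whereas the tables carry human symbols; no coordinates were used. Names on several rows or turned into dates were left out (200 names, 1768 rows), and 0 sample columns were unused. The columns numbered 4 were taken as the remaining shTMEM45A set by elimination.

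Genes passing filterByExpr (count minimum 10, total minimum 15) were scaled by TMM and fitted as group means over all 15 libraries with the robust quasi-likelihood test of edgeR 4.0.16 in R 4.3.3, with Benjamini-Hochberg adjustment over 19051 genes. All adjusted p-values come from that test unless DESeq2 1.42.0 is named. Each SE is |log2 change| over the root of its F. Like-level genes have 0.8 to 1.2 times the NC level of TMEM45A, and its place is the percent of them with a lower log2 change. The pipeline was tested on simulated data. Ratios of low counts have exact 95% intervals, which cover counting error only.

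The members, lists and rules were chosen with earlier results of these data known. Named were TMEM45A and TMEM45B, the 5 nearest genes on each side in NC, the 3 lowest and 3 highest like-level changes per set, the 5 highest and 3 lowest correlations, and up to 2 falls and 2 rises per list that passed in both sets. KRT10, KLK7, TGM1, ALOX12B, LNP1, TFG, loricrin, filaggrin and involucrin, and in the closing section AGO2 and PRKRA, were named after their values were seen. 1 gene that the rule names is not reported here.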

Additional observations from a re-analysis of the deposited data

How the results depend on the processing

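The falls of TMEM45A in sets 4 and 2 kept their direction and stayed past the threshold under every alternative run: RLE, total-count and upper-quartile scaling, no filter, only the groups compared, DESeq2, a replicate block and leaving out each library. Leaving out libraries gave -0.649 to -0.5 in set 4 (edgeR adjusted p from 6.3e-06 to 0.000185) and -0.53 to -0.421 in set 2 (9.62e-05 to 0.00154). The places ran from 25.7% to 33.7% and from 32.4% to 37.2% without single libraries, and from 29.1% to 31.5% and from 34.7% to 37.5% under the other alternatives, which include bands of 10 and 30 percent. Matched on length too, the place in set 2 moved from 28% to 33.2% with the level taken from all libraries.

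The share of like-level genes called lower in the libraries labelled shSHCBP1 was the least stable value. In shSHCBP1_1 it moved from 5.46% to 11.9% with RLE, 1.34% with total counts, 12% in a fit of only the groups compared, 12% with DESeq2, and 2.55% to 3.28% without single libraries. In shSHCBP1_2 it moved from 11.7% to 19.5%, 3.64%, 17.8% and 19.3%, and to 7.71% to 8.44% without single libraries. With total counts the shares called higher were 32.2% and 44.5%. Between shSHCBP1_2 and shSHCBP1_1, TMEM45A passed only in the fit of those groups (-0.217, edgeR adjusted p = 0.0399). With total counts FADS3 did not pass in set 2 (0.0821, edgeR adjusted p = 0.388) and PPP1R14C did (-0.215, edgeR adjusted p = 0.038). The cause of these shifts was not tested.

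With the replicate block the log2 changes of TMEM45A were -0.581 (edgeR adjusted p = 4.66e-06) and -0.455 (0.000131), and no call of TMEM45A changed in the 7 comparisons fitted with the block; the 4 of single shTMEM45A with single shSHCBP1 sets were not run with it. Libraries share only a number: of 30 same-numbered pairs, 1 had r over 0.1 (range -0.0725 to 0.136), and 4 of 15 libraries correlated best with their own number. Depth limits TMEM45B, which had 33 counts in all in NC, more than TMEM45A, which had 1149.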

Other observations

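Genes that make and use the guide strand of a hairpin were measured too. Of 14 tested, 9 were lower (64.3%) and 4 higher (28.6%) in each set and PRKRA did not pass, with medians of -0.592 and -0.541. Of all genes tested, 38.9% and 39.8% were lower and 35.5% and 36.1% higher. DICER1, which cuts the hairpin, stood at 67.7 CPM in NC, 26.1 CPM in set 4 and 27.1 CPM in set 2 (log2 changes -1.38 and -1.32). TNRC6A, a partner of the argonautes in silencing, had log2 changes of -1.15 and -1.17. AGO2, the argonaute that cleaves a matched target, went from 123.1 CPM to 68.5 and 63.0 (-0.85 and -0.97). TARBP2 and DGCR8, which help DICER1 and DROSHA, rose by 1.08 and 1.13 and by 0.98 and 0.92. In the libraries labelled shSHCBP1, 3 were lower and 1 higher in shSHCBP1_1 and 5 lower and 3 higher in shSHCBP1_2, against 10.6% and 9.42%, and 15.5% and 15.7%, of all genes tested; with total counts these became 0 lower and 4 higher, and 0 lower and 6 higher.

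Genes that share only the TMEM name, which states a predicted membrane span, were more often higher than lower where TMEM45A fell, under the main scaling. Of 201 tested, 51 were lower and 99 higher in set 4 (median 0.275), and 51 lower and 102 higher in set 2 (median 0.236). The shares are 25.4% lower and 49.3% higher in set 4, against 38.9% and 35.5% of all genes tested, and 25.4% and 50.7% in set 2, against 39.8% and 36.1%. With total counts 69 were lower and 76 higher in set 4 (median 0.0836), and 73 and 77 in set 2 (median 0.0462). That scaling moved the median of all genes to -0.23 in both sets. Of the calls over all genes, 39.6% in set 4 and 39.8% in set 2 were then higher. TMEM140 had log2 changes of -2.78 and -3.12. TMEM204 had 42 counts in NC against 6 in set 4, a ratio of 0.149 (exact 95% interval 0.0518 to 0.353), and 0 in set 2, at least 13.5-fold lower with 3 counts over the group as the floor. TMEM105 had 1 count in NC. It had 52 in set 4 (ratio 54.3, interval 9.33 to 2186) and 56 in set 2 (ratio 57.9, interval 9.98 to 2328). TMEM176B had 2 counts in NC, 54 in set 4 (ratio 28.2, interval 7.44 to 238.8) and 27 in set 2 (ratio 13.96, interval 3.51 to 121.2). TMEM105 and TMEM176B passed the count filter only through libraries where they were high. TMEM204, at a mean of 0.972 CPM in NC and less in every other group, may have passed it only through NC, which would favour a fall. By counts, TMEM105 was also higher in shSHCBP1_1 and shSHCBP1_2 (ratios 11.3 and 20.2), as was TMEM176B (4.79 and 5.5). TMEM204 was lower there by counts (0.539 and 0.458). None of these exact intervals holds a ratio of 1, but they cover counting error only. In the edgeR test TMEM105 passed in both. TMEM176B (edgeR adjusted p = 0.147 and 0.0774), TMEM204 (edgeR adjusted p = 0.264 and 0.125) and TMEM140 did not pass there. In the libraries labelled shSHCBP1, 16 TMEM genes were lower and 22 higher in shSHCBP1_1, and 28 lower and 31 higher in shSHCBP1_2 (7.96% and 10.9%, and 13.9% and 15.4%, near the shares of all genes); with RLE there were 34 lower and 15 higher, and 41 and 22, and with total counts 2 and 50, and 8 and 73.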
